A study of Mus musculus with 6 samples.

Results

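The genes described here encode the proteins of the cytosolic ribosome, and they were chosen by name, as every row of the deposited table whose gene symbol has the form of a ribosomal protein of the large subunit (Rpl) or the small subunit (Rps). The rule found 81 of 22880 genes, 49 of the large and 32 of the small subunit, and 77 of them (46 large, 31 small) were among the 12014 genes with enough reads to be tested. The family was picked with the difference between the groups already known, so that every comparison of HIF-1α-KD with Mock cells for these genes is a description.

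The libraries came from MC-38 cells, a mouse colon adenocarcinoma line, that carried GFP and had grown as orthotopic tumors in the cecum wall of C57BL/6J mice. Tumor cells negative for CD45 and CD31 and positive for GFP were sorted, and the poly-A RNA of 3 Mock and 3 HIF-1α-KD samples was sequenced. All 6 samples carried the pLKO.1-puro vector and are labelled as without in vivo passaging, a term the labels do not define for cells taken from tumors, and the groups differed in the knockdown of HIF-1α, the oxygen-regulated subunit of the hypoxia-inducible factor HIF-1. Neither the labels nor the methods say whether a library is 1 tumor or whether each cell line is 1 clone, so the p-values measure the spread between these samples, which may be partly technical. Hif1a (ENSMUSG00000021109, GRCm38, chr12:73901375-73947530) showed normalized counts of 6914, 5424 and 4945 in Mock against 697.3, 3142 and 1928 in HIF-1α-KD libraries, with a log2 fold change of -1.82 ± 0.46 (SE) and an adjusted p of 0.219 (limma). Every knockdown library was below every Mock library for the targeted gene, and HIF-1α-KD 1 was the lowest (log2 fold change -1.21 without it).

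Reads on genes ranged from 19845838 to 30809238 per library. Mock 1 and HIF-1α-KD 1 lay at the ends of the first principal component, at -39.08 and 56.19, and the other libraries lay between -13.7 and 10.26. Markers of leukocytes were highest in HIF-1α-KD 3, where 12 genes summed to 443 FPKM (fragments per kilobase of gene and per unit of sequencing depth), against 129 to 138 in Mock cells and a lowest value of 79.8 in HIF-1α-KD cells. Of 10 tested leukocyte markers 8 had a log2 fold change under 0 (47.3% of all genes tested), none was at 0 in all libraries, and their median was -0.18. Fibroblast and mural markers (8 genes) summed to 525 to 957 FPKM in Mock and 389 to 678 in the knockdown libraries, a sum made mostly of Dcn (mean 618 and 485 FPKM, log2 fold change -0.38, and -0.05 without Mock 3 or -0.14 without HIF-1α-KD 3). Of 7 tested, 5 had a log2 fold change above 0 (median 0.33). Cspg4 (1.42 ± 0.47) and Rgs5 (1.15 ± 0.4), both known from pericytes, were higher at an unadjusted p under 0.05 and without overlap. Of all genes tested, 7.04% were higher at that threshold and 10.4% were higher without overlap. None of the 7 passed the adjusted threshold of limma. Without Mock 1, Cspg4 was at 0.85. Endothelial markers (7 genes) summed to at most 6.38 FPKM in any library. Of 3 tested, Cdh5 was lower without overlap (-0.84 ± 0.27, adjusted p = 0.294, limma), as were 8.75% of all genes tested. The other 2 were above 0 with overlap. Epithelial markers (10 genes) summed to 1.48 to 16.5 in Mock and 1.84 to 3.52 in HIF-1α-KD cells, near 0 for cells labelled as colon adenocarcinoma, and the highest sum was that of Mock 3, where Krt8 had 190.9 normalized counts against 6.155 to 32.17 in the other libraries. Erythroid genes (6) summed to 43.4 to 95.6 in Mock and 0.181 to 39.9 in HIF-1α-KD cells.

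The cytosolic ribosome translates mRNA into protein. Its small subunit binds the mRNA and reads the codons, and its large subunit joins the amino acids and carries the exit tunnel for the growing chain. The mRNAs of ribosomal proteins belong to the TOP class, which starts with a C followed by a run of pyrimidines, and whose translation is governed by the growth kinase complex mTORC1 and the RNA-binding protein LARP1. These mRNAs are short, very abundant and produced in near balance, because each ribosome needs 1 copy of most of its proteins.

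The start sites were searched for this feature. RefSeq start sequences (GRCm38.p6) were matched by symbol for 60 of the 81 genes, and the 25 bases before and after each start were searched on the coding strand for a run of 8 or more letters that are C or T. Such a run was present in 32 of 60 ribosomal protein genes (53.3%), in 56.8% of 37 large and 47.8% of 23 small subunit genes, against 22.9% of 9011 other tested genes and 22.3% of all 27025 genes in the table. The word CTTTC was found in 31.7% of the ribosomal protein genes and in 6.81% of the other tested genes and 7.87% of all genes, and it overlaps the runs. On the other strand, read as GAAAG, it was found in 8.33%, 5.97% and 7.07%. A run of 8 or more purines was found in 8.33% of the ribosomal protein genes and 23.4% of other tested genes. A match is a run of letters in the annotated window, and it was not tested as a regulatory site.

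The windows below hold 15 bases before and 15 from the start, 5′ to 3′ on the coding strand, with the longest pyrimidine run in capitals. The first 4 belong to members with large differences between the groups or a high level and carry a run at or close to the start. Rpl26, which differed as much, has no long run in its window, and Rps27 and its copy Rps27l are shown because their values between the groups were unlike. Rps24 and Rps27l each have 2 annotated starts, of which the one with the longer run is shown.
Rps10 (chr17:27635230-27635259, minus strand): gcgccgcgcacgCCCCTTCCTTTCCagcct
Rps24 (chr14:24490663-24490692, plus strand): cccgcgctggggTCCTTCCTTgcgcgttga
Rpl13a (chr7:45128731-45128760, minus strand): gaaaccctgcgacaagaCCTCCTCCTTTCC
Rps18 (chr17:33955651-33955680, minus strand): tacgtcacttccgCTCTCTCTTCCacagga
Rpl26 (chr11:68901551-68901580, plus strand): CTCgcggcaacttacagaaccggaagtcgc
Rps27 (chr3:90213634-90213663, minus strand): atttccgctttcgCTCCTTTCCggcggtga
Rps27l (chr9:66946071-66946100, plus strand): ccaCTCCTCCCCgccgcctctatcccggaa
The median log2 fold change was -0.46 for members with a run of 8 or more (31 tested genes) and -0.45 for members with shorter runs (26 tested genes), so the annotated run did not separate the members by their difference between the groups.

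The members share other traits that the rule did not use. They lie on 19 chromosomes, with at most 14 on one of them. snoRNA genes, whose small RNAs guide the modification of ribosomal RNA, lie inside 29 of the 81 genes (35.8%), 56 of them in all, against 1.86% of 11975 tested genes with an annotated position. Gene models of the tested members had a median width of 691 bases, against 1920 for all genes tested, and a median GC content of 52.0% against 50.6%. FPKM, the only scale here that compares genes of different length, was above 100 in every library for 77 members, and 50 of the 100 highest genes in Mock cells were members. The highest mean levels in Mock cells were those of Rps12 (5784.3 ± 674 FPKM, SD, n = 3), Rplp0 (5710.3 ± 537), Rps4x (5226.3 ± 1079.2), Rps18 (3531.7 ± 210) and Rpl19 (3447.3 ± 191). The first 3 of these do not differ beyond their spread, and neither do the last 2.

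Ribosomal protein genes took a smaller share of the reads in HIF-1α-KD than in Mock cells. The share was 10.7%, 8.9% and 10.2% in Mock against 7.86%, 7.09% and 7.67% in HIF-1α-KD cells, a mean of 9.93% ± 0.929 against 7.54% ± 0.401 (SD, n = 3 each). All knockdown libraries were below all Mock libraries, and the lowest Mock library was Mock 2. Large subunit genes took 6.09%, 5.18% and 5.88% of reads in Mock against 4.46%, 4.12% and 4.49% in HIF-1α-KD cells. Small subunit genes took 4.56%, 3.72% and 4.33% in Mock against 3.41%, 2.97% and 3.18% in HIF-1α-KD cells. The ratio of large to small subunit reads was 1.36 ± 0.0281 in Mock and 1.37 ± 0.0537 in HIF-1α-KD cells, within the spread of either group. These are shares of a total, and less RNA of these genes in each cell cannot be told apart from fewer cells with high levels of it.

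**Figure D1:**
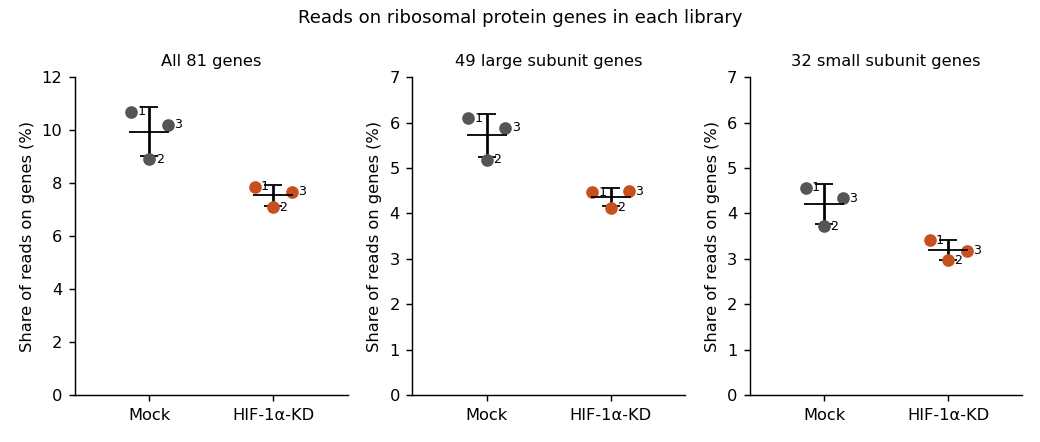
Share of the reads on genes (%) that fell on ribosomal protein genes in each of 3 Mock and 3 HIF-1α-KD libraries, for all members and for each subunit, with points numbered by replicate and the mean ± SD as bars. The 3 HIF-1α-KD points lie at 7.09% to 7.86% for all members, under the Mock points at 8.9% to 10.7%.

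Gene by gene, 77 of 77 tested members had a log2 fold change under 0, as did 47.3% of all genes tested. The median was -0.45, which is 26.8% lower in HIF-1α-KD cells, with quartiles of -0.5 and -0.38, against 0.02 with quartiles of -0.19 and 0.24 over all genes tested. None passed an adjusted p of 0.05 in limma, where 0.383% of all genes were lower and 0.00832% higher at that threshold (0.391% in either direction), and the smallest adjusted p of a member was 0.241. At an unadjusted p under 0.05, 54 members were lower, against 5.69% of all genes tested. The groups did not overlap for 50 members, all lower in HIF-1α-KD cells, against 8.75% of all genes tested that were lower and 10.4% that were higher without overlap. At an adjusted p under 0.05, edgeR on recovered reads called 0 members, and DESeq2 called Rpl13a, Rps10 and Rps12, with 1.56% of all genes lower in DESeq2. Ribosomal protein mRNAs vary together within a library, so these counts are not counts of independent observations.

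The subunits had nearly the same values. The median log2 fold change of large subunit genes was -0.44 (46 genes), with 32 lower at an unadjusted p under 0.05 and 30 without overlap of the groups. Small subunit genes had a median of -0.46 (31 genes), with 22 and 20. The fold changes spread by an SD of 0.107 over members, while the median standard error of a single member was 0.174. That error includes library variation shared by the members, and whether members can be ranked against each other was not tested.

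**Figure D2:**
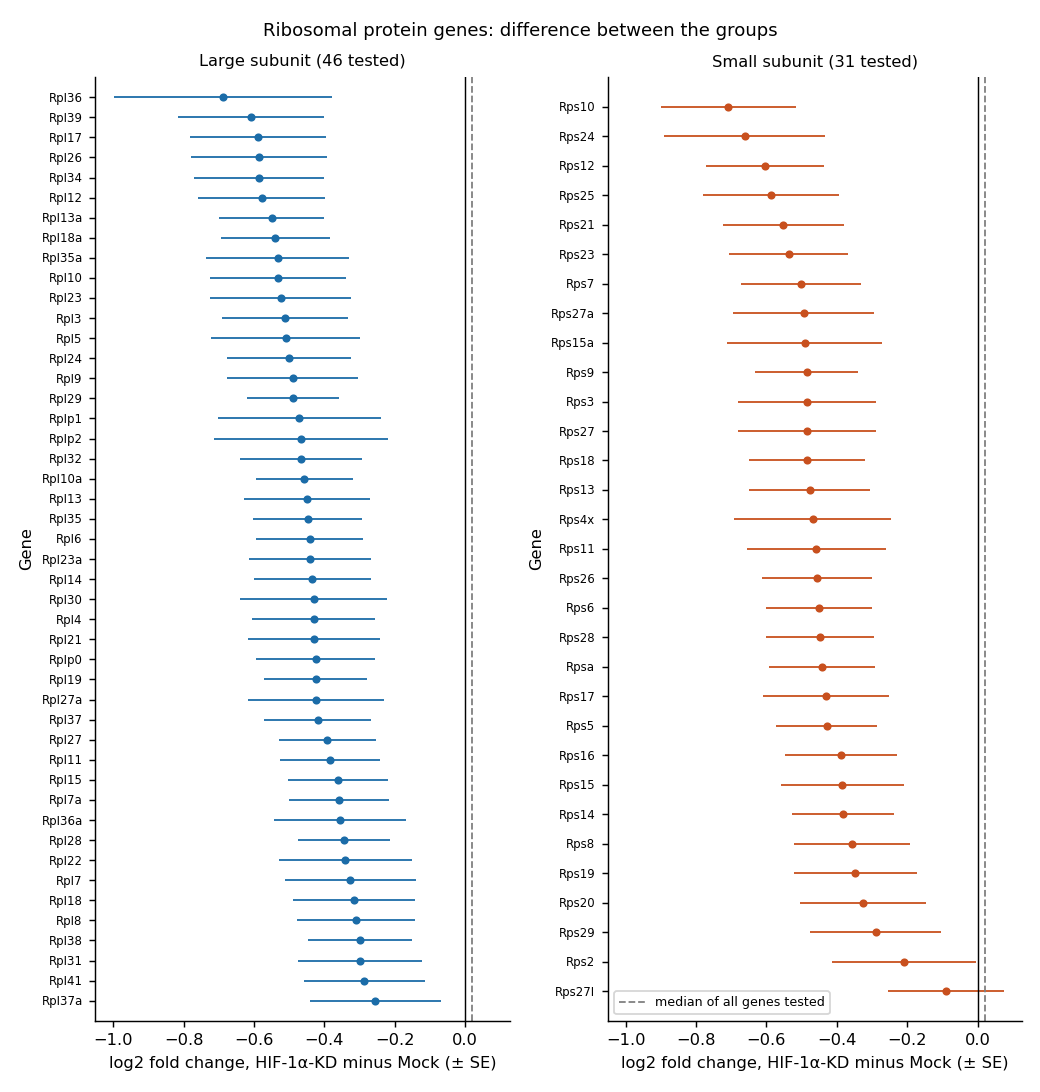
Log2 fold change of HIF-1α-KD minus Mock for each tested member (points) with its standard error (bars), ordered within the large and small subunit, and the median of all genes tested as a dashed line. The points lie between -0.71 and -0.09, under the median of all genes at 0.02.

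In the large subunit, the lowest fold changes were those of Rpl36, Rpl39, Rpl17, Rpl26 and Rpl34. Rpl39, a very small protein of the exit tunnel, showed normalized counts of 15130, 8354 and 11670 in Mock against 7911, 7293 and 7209 in HIF-1α-KD libraries, with a log2 fold change of -0.61 ± 0.21 (SE, adjusted p = 0.312). The groups did not overlap, but Mock 2 lay close to the knockdown libraries. Rpl26, which lies near the exit of the tunnel and also binds p53 mRNA, had 43120, 26270 and 30170 in Mock against 20620, 22270 and 21980 in HIF-1α-KD libraries. The fitted log2 fold change of Rpl26 was -0.59 ± 0.19, and Mock 1 stood well above the other Mock libraries. Rpl17 (37000, 22030 and 27310 against 18410, 18330 and 19370) and Rpl34 (26430, 16670 and 19890 against 13870, 12790 and 14630) showed the same order of libraries, with Mock 1 highest and Mock 2 lowest of the Mock group. Both had a log2 fold change of -0.59. Without Mock 1, the values were -0.4 for Rpl39, -0.38 for Rpl26 and -0.39 for Rpl17. Rpl36 had the lowest log2 fold change of the large subunit, -0.69 ± 0.31 (adjusted p = 0.398), but its counts of 5263, 10360 and 12220 in Mock overlapped those of 6947, 4347 and 5279 in HIF-1α-KD cells. The value was -1.05 without Mock 1 and -0.45 without Mock 3, so its place among the lowest rests on single libraries. Here Mock 1 was low rather than high, and Rpl36 has the highest GC content of the tested members, 60.9%.

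The gene with the smallest p of the family was Rpl29, a small protein of the large subunit, whose libraries were tight within groups. Its normalized counts were 11320, 11710 and 12090 in Mock against 8868, 7530 and 8666 in HIF-1α-KD libraries, with a log2 fold change of -0.49 ± 0.13 (adjusted p = 0.241). Rpl13a, which also takes part in a complex that represses inflammatory mRNAs in myeloid cells, had 42750, 37210 and 43280 against 30240, 24910 and 29140, a log2 fold change of -0.55 ± 0.15. Both genes showed no overlap between the groups. Rpl29 and Rpl13a were named after their values were seen.

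The large subunit genes nearest to no difference were Rpl37a (log2 fold change -0.25 ± 0.19), Rpl41 (-0.29 ± 0.17) and Rpl31 (-0.3 ± 0.18). Rpl41, which encodes the smallest ribosomal protein, showed normalized counts of 31230, 35840 and 45050 in Mock against 31290, 32130 and 27680 in HIF-1α-KD libraries. For each of these 3 genes the groups overlapped, with 1 or more Mock libraries inside the range of the knockdown libraries. The values moved with single libraries, to -0.1 without Mock 3 and -0.38 without Mock 2 or HIF-1α-KD 1 for Rpl37a, to -0.14 without Mock 3 for Rpl41, and to -0.17 without Mock 1 and -0.47 without Mock 2 for Rpl31.

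Rpl3, which lies at the peptidyl transferase center where amino acids are joined, had 66070, 45480 and 51090 in Mock against 37990, 34440 and 40500 in HIF-1α-KD libraries, with a log2 fold change of -0.51 ± 0.18 without overlap. Rpl10, which completes the late maturation of the subunit, had 61290, 42120 and 53090 against 42870, 31220 and 33910 and a log2 fold change of -0.53 ± 0.19. HIF-1α-KD 1 lay just above Mock 2 for Rpl10. Rpl19, among the 5 highest genes, had 55130, 47910 and 56860 against 39910, 38180 and 40710, without overlap, and a log2 fold change of -0.43 ± 0.14.

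The P-stalk, formed by Rplp0, Rplp1 and Rplp2, is the arm of the large subunit that recruits elongation factors. Rplp0 showed normalized counts of 116600, 119500 and 140100 in Mock against 105000, 86280 and 89100 in HIF-1α-KD libraries, with a log2 fold change of -0.42 ± 0.17 (adjusted p = 0.372) without overlap. Rplp1 had 24200, 37380 and 44990 against 28050, 22070 and 24690, and Rplp2 had 13570, 18890 and 22400 against 17690, 10230 and 12020. Both had a log2 fold change of -0.47, and in both Mock 1 lay inside the range of the knockdown libraries. Without Mock 3 the values were -0.28 for Rplp1 and -0.31 for Rplp2, and they were -0.72 for Rplp1 without Mock 1 and -0.3 for Rplp2 without HIF-1α-KD 2.

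Rpl5 and Rpl11 form a particle with 5S ribosomal RNA and, when free of the ribosome, bind MDM2, the ligase that degrades p53. Rpl5 had 39980, 23270 and 31300 in Mock against 19650, 20630 and 24870 in HIF-1α-KD libraries, with Mock 2 below HIF-1α-KD 3 and a log2 fold change of -0.51 ± 0.21 (-0.32 without Mock 1). Rpl11 had 28570, 22950 and 26470 against 20370, 18830 and 20360 without overlap, and a log2 fold change of -0.38 ± 0.14. Of 4 tested genes listed for this checkpoint, Cdkn1a, which encodes the cell cycle inhibitor p21 and is a target of p53, fell. Its counts were 1735, 1238 and 2119 in Mock against 604, 484.4 and 544.1 in HIF-1α-KD libraries, with a log2 fold change of -1.61 ± 0.21 (adjusted p = 0.0245, limma). The groups did not overlap, and the adjusted p was 0.041 to 0.109 with 1 library left out and above the threshold without Mock 1, Mock 3, HIF-1α-KD 2 or HIF-1α-KD 3. Mdm2 (-0.28 ± 0.18) and Mdm4 (0.17 ± 0.14) overlapped between the groups, and both moved by over 1.5 times with single libraries (Mdm2 to -0.16 without Mock 1 and -0.18 without HIF-1α-KD 1, Mdm4 to 0.11 without HIF-1α-KD 3).

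In the small subunit, the lowest fold changes were those of Rps10, Rps24, Rps12, Rps25 and Rps21. Rps10 lies at the mRNA entry side and is ubiquitinated when ribosomes collide. Its normalized counts were 22750, 18110 and 21450 in Mock against 16060, 10010 and 12600 in HIF-1α-KD libraries, with a log2 fold change of -0.71 ± 0.19 (adjusted p = 0.245), the lowest of all 77 tested members. Rps24, mutated in some patients with Diamond-Blackfan anemia, a failure of red cell production, had 45740, 23490 and 31090 against 21290, 19410 and 20390, a log2 fold change of -0.66 ± 0.23. For both genes each knockdown library was below each Mock library, and for Rps24 the Mock libraries spread far more than the knockdown libraries (log2 fold change -0.41 without Mock 1).

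Rps12 had 76230, 57270 and 74150 in Mock against 47520, 41730 and 46390 in HIF-1α-KD libraries, with a log2 fold change of -0.61 ± 0.17 (adjusted p = 0.25) without overlap. The mRNA of this protein served as the reference for the qPCR of the study, which was not analysed here. Rps25, used by some viral internal ribosome entry sites, had 24150, 14440 and 18010 against 11780, 12060 and 13040, and a log2 fold change of -0.59 ± 0.19 (-0.39 without Mock 1). Rps21 had 20310, 20800 and 25070 against 18370, 13420 and 13640, and a log2 fold change of -0.55 ± 0.17. None of these 3 genes overlapped between the groups.

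Rps6, the substrate of the S6 kinases downstream of mTORC1, had 26500, 21070 and 26910 in Mock against 18170, 17120 and 18910 in HIF-1α-KD libraries, with a log2 fold change of -0.45 ± 0.15. Rpsa, which has also been described as a laminin receptor, had 87030, 77700 and 84970 against 62790, 56830 and 64180, and a log2 fold change of -0.44 ± 0.15. Rps18, a protein of the head of the subunit, had 53580, 46880 and 56180 against 43580, 33090 and 35710 and a log2 fold change of -0.48 ± 0.17. None of the 3 overlapped between the groups. Rps4x, encoded on the X chromosome and among the 5 highest genes by FPKM, had 125700, 77740 and 101300 against 88870, 65780 and 63970, with Mock 2 below HIF-1α-KD 1 and a log2 fold change of -0.47 ± 0.22 (-0.3 without Mock 1).

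At the other end of the small subunit lay Rps27l, Rps2 and Rps29. Rps2, which lines the path of the mRNA, had 67220, 62880 and 74970 in Mock against 78500, 49570 and 52590 in HIF-1α-KD libraries, with a log2 fold change of -0.21 ± 0.21 (adjusted p = 0.707). HIF-1α-KD 1 was the highest of all 6 libraries for Rps2 and the other knockdown libraries were the lowest. The log2 fold change of Rps2 was -0.42 without HIF-1α-KD 1, -0.09 without HIF-1α-KD 2 and -0.13 without HIF-1α-KD 3. Rps29 had 14230, 17970 and 23280 against 14710, 14770 and 14980, with Mock 1 below all knockdown libraries and a log2 fold change of -0.29 ± 0.19 (-0.46 without Mock 1 and -0.11 without Mock 3).

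Rps27l is a copy of Rps27 that is induced by p53. It showed normalized counts of 3476, 2426 and 3236 in Mock against 2933, 2915 and 2641 in HIF-1α-KD libraries, and its log2 fold change of -0.09 ± 0.17 (adjusted p = 0.848) was the closest to 0 of the family. Rps27 had 31940, 18710 and 25120 against 17790, 17630 and 17450, and a log2 fold change of -0.49 ± 0.2 (-0.3 without Mock 1). The FPKM of Rps27l was 12.8% ± 1.24 of that of Rps27 in Mock (11.4%, 13.6% and 13.5%) against 16.8% ± 0.808 in HIF-1α-KD cells (17.3%, 17.3% and 15.9%). These ratios did not overlap between the groups. For the 3 copies outside the name rule that were compared in the same way, Rpl22l1 was at 19.4% ± 3.52 of Rpl22 in Mock against 13.3% ± 3.98 in the knockdown libraries, Rpl36al at 10.7% ± 1.17 against 12.5% ± 1.68 of Rpl36a, and Rpl7l1 at 2.92% ± 0.622 against 3.93% ± 0.34 of Rpl7, each with overlap or a tie between the groups. The sign for Rps27l turned to 0.06 with a correction for gene width and to 0.01 without Mock 1, and the value was -0.25 without Mock 2 and -0.04 without Mock 3 or HIF-1α-KD 3.

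The other copies found by the rule were near or at 0 reads and were not tested. Rpl3l, the heart and muscle copy of Rpl3, showed normalized counts of 4.924, 3.828 and 2.416 in Mock against 16.09, 5.995 and 1.155 in HIF-1α-KD libraries. Rpl39l, a copy of Rpl39 known from testis, had 1.231, 3.828 and 2.416 against 0, 3.597 and 1.155, and Rps4l had 0, 0 and 3.624 against 0, 0 and 1.155. Rpl10l, the testis copy of Rpl10, had 0 reads in all 6 libraries, and a count of 0 allows up to 3 reads per library (counting error only). No fold is given for these 4 genes.

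Ribosomal proteins with names outside the rule were described from a separate list, of which 8 genes were tested. Of these, 6 had a log2 fold change under 0 (47.3% of all genes tested) and 3 were lower at an unadjusted p under 0.05 (5.69% of all genes tested), none passed the adjusted threshold of limma, and the median was -0.39. Gnb2l1 (Rack1), a scaffold on the small subunit, had 101900, 80920 and 92070 in Mock against 60770, 57720 and 67050 in HIF-1α-KD libraries, with a log2 fold change of -0.56 ± 0.16 without overlap. Rps3a1 (-0.44) and Fau (-0.51), made as a fusion with a ubiquitin-like protein, lay in the range of the members. Rpl22l1, a copy of the large subunit gene Rpl22, had 4129, 1946 and 2423 against 1091, 1315 and 2016 and a log2 fold change of -0.92 ± 0.31, with Mock 2 below HIF-1α-KD 3 (-0.61 without Mock 1). Fau was at -0.31 without Mock 3. Rpl36al (-0.14) was near the upper end of that range, and Rpl7l1 (0.12) and the weakly detected Rps27rt (1.05 ± 0.65, 4.924 to 31.18 normalized counts) were above 0. Rpl36al ranged from -0.24 without Mock 2 to -0.08 without Mock 1, with -0.09 without Mock 3 or HIF-1α-KD 3, and Rps27rt was at 0.6 without HIF-1α-KD 2. Of 18 rows named as pseudogenes of ribosomal proteins, 4 were tested, 3 with a log2 fold change above 0, none at an unadjusted p under 0.05 in limma, and a median of 0.17. Ribosomal protein genes have many processed pseudogenes, and the methods capped the number of alignments a read may have, while how the counting treated reads with several alignments is not given in the sources used here, so reads shared with such copies are a limit on each member's value.

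Members varied together within the groups. Each gene's log2 value was taken relative to its mean over the 6 libraries, and the median over members was 0.34, 0 and 0.29 in Mock against -0.16, -0.32 and -0.22 in HIF-1α-KD libraries, while the median over all genes tested stayed between -0.01 and 0.02. Mock 2 lay between the other Mock libraries and the knockdown libraries. Mock 1 was the highest Mock library for 46 members and Mock 3 for 31, and Mock 2 was the lowest for 62. Within the knockdown group HIF-1α-KD 2 was the lowest for 49 members. The median within-group SD of the members was 0.254 in Mock against 0.123 in HIF-1α-KD libraries (log2), and 62 members (80.5%) had the larger SD in Mock, against 54.8% of all genes tested (medians 0.249 and 0.212).

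**Figure D3:**
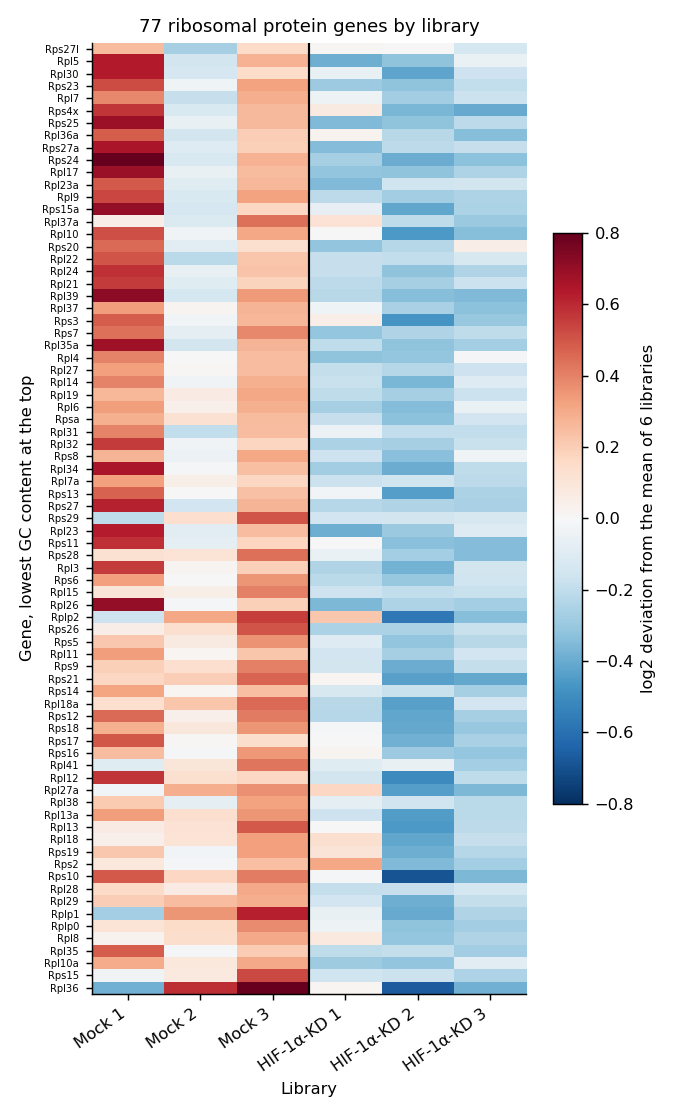
Log2 deviation of 77 tested members (rows, ordered by GC content, lowest at the top) from their mean over 6 libraries (columns), with red above and blue below the mean. Mock 1 is reddest at low GC content (median 0.5 in the 38 members below the median GC content and 0.2 in the other 39), and the HIF-1α-KD columns are mostly blue.

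GC content went with the differences of Mock 1 from the other Mock libraries. Across the 77 members, the Spearman correlation of GC content with the log2 difference of Mock 1 minus Mock 2 was -0.71, and across all 12014 genes it was -0.52. For Mock 1 minus Mock 3 the values were -0.6 and -0.5, and for Mock 2 minus Mock 3 they were 0.45 and -0.06. Within the knockdown group they were 0.32 and 0.3 for HIF-1α-KD 1 minus 2, 0.28 and 0.22 for 1 minus 3, and -0.11 and -0.03 for 2 minus 3. For HIF-1α-KD minus Mock the correlation with GC content was 0.09 across members (-0.01 large, 0.2 small subunit) and 0.15 across all genes. All these points share the same libraries and genes are not independent replicates, so the correlations are descriptions. Members below the median GC content of 52.0% had median deviations of 0.5, -0.08 and 0.26 in Mock against -0.2, -0.31 and -0.2 in HIF-1α-KD libraries. Members at or above it had 0.2, 0.09 and 0.35 and -0.11, -0.34 and -0.24. In the latter, Mock 1 was not the highest Mock library.

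Most members are short, and 70 of the 77 lie in the shortest of 5 equal groups of genes (225 to 1170 bases). The median log2 fold change of the other 2306 genes of that group was -0.05, that of the members in it was -0.45, and the 2411 genes of the longest group had 0.13. Over all genes the Spearman correlation of the log2 fold change with width was 0.19, and over the members it was -0.02 (-0.04 large, -0.03 small subunit). With a loess correction for width the medians were -0.35 for the large and -0.36 for the small subunit, and 34 members were lower at an unadjusted p under 0.05 (6.08% of all genes tested). With a correction for GC content the medians were -0.48 and -0.5, and 64 members were lower (7.31% of all genes tested).

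**Figure D4:**
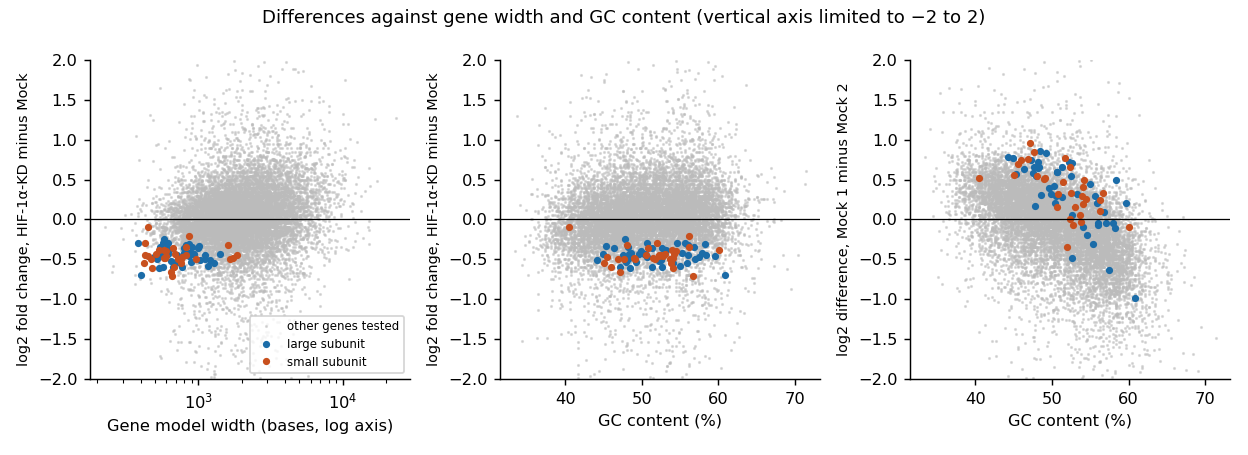
Log2 fold change of HIF-1α-KD minus Mock against gene model width (bases, log axis) and GC content (%), and the log2 difference of Mock 1 minus Mock 2 against GC content, for all 12014 genes tested (grey) and the members (blue large, orange small subunit). Members lie under 0 over their whole range of width and GC content for the groups (rho of -0.02 and 0.09), and follow GC content within the Mock group (rho of -0.71).

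The values were recomputed without libraries that stood apart. Leaving out HIF-1α-KD 3, with its high leukocyte markers, gave medians of -0.46 for both subunits, and leaving out both Mock 1 and HIF-1α-KD 1 gave -0.37 and -0.44 (large and small). In these settings 31 and 40 members were lower at an unadjusted p under 0.05 (5.85% and 5.6% of all genes tested), and Rpl36 alone passed the adjusted threshold in the latter (adjusted p = 0.0442, limma). Without Mock 3, with its higher epithelial markers, the medians were -0.41 and -0.43. The count at an unadjusted p under 0.05 fell to 22 without Mock 3 and to 14 without HIF-1α-KD 2 (5.59% and 4.24% of all genes tested). Of the immediate early genes, which respond within minutes to stress and handling, 10 of 10 had a log2 fold change under 0, with 8 lower at an unadjusted p under 0.05 (5.69% of all genes tested), none past the adjusted threshold of limma and a median of -1.47. The erythroid list had 5 tested genes, all lower at an unadjusted p under 0.05 with none past the adjusted threshold, and a median of -3.49. The parts of handling and of red cell, leukocyte and epithelial RNA in the family's difference were not tested.

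Translation genes beside the ribosome did not share 1 direction. The list of elongation factors and other TOP mRNAs had 20 tested genes, 19 with a log2 fold change under 0 (47.3% of all genes tested), 7 lower at an unadjusted p under 0.05 (5.69% of all genes tested) and a median of -0.36. Gnb2l1, described above, is 1 of the 7, and without it there were 19 tested genes, 18 under 0 and 6 lower, with the same median. Eef2, which moves the ribosome along the mRNA, had 83620, 92530 and 109100 in Mock against 60230, 53510 and 62370 in HIF-1α-KD libraries, with a log2 fold change of -0.69 ± 0.17 (adjusted p = 0.21). Vim, the intermediate filament vimentin and a known TOP mRNA, had 123100, 103700 and 110500 against 72250, 70560 and 70420, a log2 fold change of -0.66 ± 0.15 (adjusted p = 0.196). Neither gene overlapped between the groups. Initiation factors (31 tested) had 16 under and 15 above 0, with a median of 0 and 3 at an unadjusted p under 0.05 in each direction (5.69% of all genes tested lower, 7.04% higher). The 3 genes with the smallest p, named next, were all above 0. The scaffold Eif4g1 was 7309, 12130 and 8981 in Mock against 14250, 12330 and 13530 in HIF-1α-KD libraries (log2 fold change 0.53 ± 0.19), without overlap, and Eif5b (0.71 ± 0.26) and Eif3a (0.4 ± 0.16) did not overlap either. Eif4g1 was at 0.35 without Mock 1, Eif5b at 0.47 without HIF-1α-KD 3 and Eif3a at 0.24 with the correction for gene width.

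Most of the listed genes that build the ribosome were above 0. Of 54 tested ribosome biogenesis genes, 46 had a log2 fold change above 0 and 8 below, with a median of 0.24. Below 0 were 47.3% of all genes tested. At an unadjusted p under 0.05, 8 were higher and 2 lower, against 7.04% and 5.69% of all genes tested. Without overlap, 13 were higher and 2 lower, against 10.4% and 8.75% of all genes tested. Tsr1, a factor of small subunit maturation, had 2340, 2655 and 2434 in Mock against 3187, 3169 and 3647 in HIF-1α-KD libraries, with a log2 fold change of 0.43 ± 0.13 (adjusted p = 0.287). Utp20 (0.52 ± 0.16), of the small subunit processome, and Noc3l (0.41 ± 0.14), of large subunit assembly, were also higher in each knockdown library than in each Mock library. RNA polymerase I, which transcribes ribosomal RNA, and its factors had 19 tested genes with 12 above and 7 below 0, 2 higher and 1 lower at an unadjusted p under 0.05 (7.04% and 5.69% of all genes tested), and a median of 0.11. Its largest subunit Polr1a (0.63 ± 0.24, and 0.4 without Mock 1) was without overlap, the factor Ubtf (0.37 ± 0.16) overlapped, and Polr1c (-0.32 ± 0.14) was lower without overlap.

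Among 18 tested genes of mTORC1 and TOP mRNA control, 10 had a log2 fold change above and 8 below 0, with a median of 0.02 and 2 at an unadjusted p under 0.05 in each direction, against 5.69% of all genes tested lower and 7.04% higher. Ddit4, an inhibitor of mTORC1 that is induced in hypoxia, had 6046, 5177 and 4452 in Mock against 2411, 3293 and 2741 in HIF-1α-KD libraries, with a log2 fold change of -0.89 ± 0.17 (adjusted p = 0.109) without overlap. Eif4ebp1, the mTORC1-regulated repressor of cap-dependent initiation, had a log2 fold change of -0.49 ± 0.15 without overlap. Larp1 had 2247, 4121 and 2665 against 5028, 4004 and 5032 and a log2 fold change of 0.68 ± 0.23, with Mock 2 above HIF-1α-KD 2. None of the 5 lists named here from elongation factors to mTORC1 control had a gene at an adjusted p under 0.05 in limma.

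Other lists of abundant, short or multi-subunit genes were closer to the median of all genes. For comparison, 47.3% of all genes tested were under 0, and 5.69% were lower and 7.04% higher at an unadjusted p under 0.05. Mitochondrial ribosomal proteins (76 tested) had 41 below and 35 above 0, 1 lower at an unadjusted p under 0.05 and a median of -0.02. Proteasome subunits (37 tested) had 20 below and 17 above 0, none at an unadjusted p under 0.05, and a median of -0.01. Nuclear genes of the respiratory chain (74 tested), whose median width of 694 bases is close to that of the ribosomal protein genes, had 54 below 0, 3 lower and 1 higher at an unadjusted p under 0.05, and a median of -0.1. In this list Ndufv3, a subunit of complex I, fell from 1968, 1863 and 1993 to 1109, 1098 and 1033, a log2 fold change of -0.85 ± 0.13 (adjusted p = 0.0398, limma). This call was lost in each fit that left out 1 library (adjusted p of 0.0798 to 0.172). Genes of the mitochondrial genome (9 tested) had 6 above and 3 below 0, 1 higher at an unadjusted p under 0.05 and a median of 0.18, none past the adjusted threshold.

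**Figure D5:**
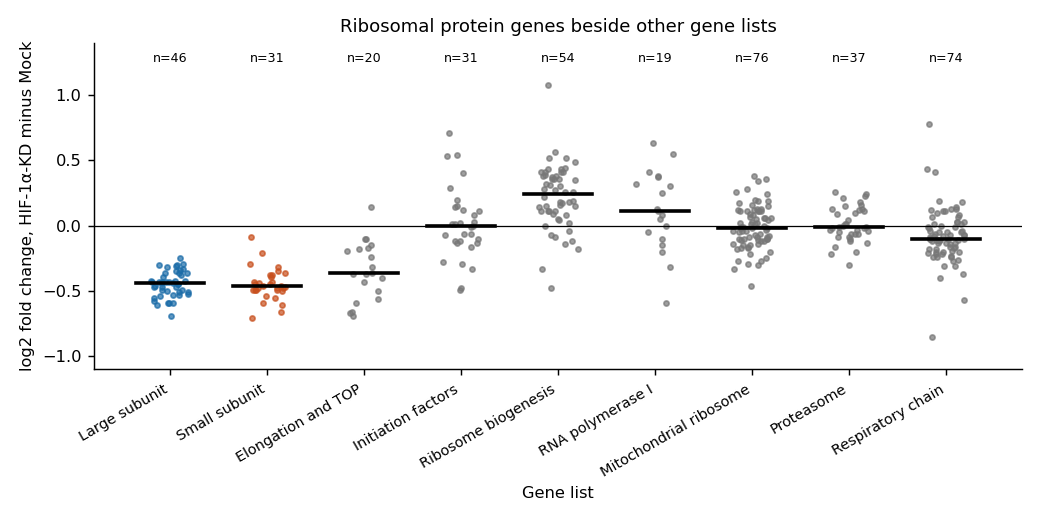
Log2 fold change of HIF-1α-KD minus Mock for the tested genes of 9 lists (points, spread sideways at random) with each list's median as a black bar. The ribosomal protein genes lie under 0 (medians -0.44 and -0.46), elongation and TOP genes at -0.36, biogenesis genes at 0.24, and mitochondrial ribosome and proteasome genes at -0.02 and -0.01.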

How the data were processed

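The authors sequenced poly-A RNA of 6 sorted samples (3 Mock, 3 HIF-1α-KD, grouped by the knockdown in their labels). The methods name trimming, STAR, featureCounts and DESeq2 and the human assembly GRCh38, while the submitters' processing notes name GRCm38, STAR and edgeR, and the deposited identifiers are of mouse. The deposited normalized count is a signal: the authors scaled the reads of a gene by 1 factor per library and kept 4 significant digits. The authors also deposited FPKM, the GC fraction and the width in bases of each gene model. The deposited log2 ratio, p-value and false discovery rate are the authors' own comparison and were not used. The number of per-sample columns left unmapped was 0.

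Reads were recovered from the factors, and 100% of values up to 300 reads were whole within 0.1. Genes were filtered with filterByExpr of edgeR 4.0.16 (minimum count 10), and 12014 were tested by limma 3.58.1, fitting a trend of variance with mean, on log2(normalized count + 1), a scale that understates changes of low genes, with two-sided p-values and Benjamini-Hochberg adjustment over all genes. This test was taken because the file holds normalized counts rather than counts. It called 47 genes, and so did the quasi-likelihood test of edgeR on the recovered reads, an alternative, as was DESeq2 1.42.0. With 3 against 3 samples a permutation test cannot go below 0.1, so none was used. Read totals set only the counting error.

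The members and all gene lists were chosen with earlier results of these data known, and counts over them support nothing beyond their description. Genes named are those with an adjusted p under 0.05, the 5 lowest and 3 highest fold changes per subunit, the 5 highest by FPKM, Rps12, a set with known other roles, gene copies and their parents, up to 3 genes per list by adjusted p and the ribosomal proteins outside the name rule, of which 1 is not reported here. Positions are from the GENCODE M21 annotation (GRCm38), which held all 81 members, and start sequences from RefSeq. The software was R 4.3.3, matplotlib 3.10.9, scipy 1.17.1, numpy 2.4.6, pandas 2.3.3 and Python 3.11.15.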

Additional observations from a re-analysis of the deposited data

How the results depend on the processing

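The medians of both subunits stayed under 0 in every alternative run. Corrections were by loess with a span of 0.5, and the joint correction for width and GC content and the fit without Mock 1 and HIF-1α-KD 1 were chosen after seeing the data. Members lower at an unadjusted p under 0.05 numbered 54, and 34 with the width correction (6.08% of all genes). Leaving out 1 library gave 14 (without HIF-1α-KD 2) to 65 (without Mock 2), with 22 without Mock 3 and 31 without HIF-1α-KD 3, while 4.24% to 5.85% of all genes were lower; fewer samples enter these fits. The same fits gave 50 to 67 members without overlap, while 12.2% to 15.3% of all genes were then lower without overlap, medians of -0.53 to -0.36 (large) and -0.56 to -0.39 (small), and a difference in the share of reads of -2.89 to -2.02 percentage points. That difference was -2.38 over all reads and -3.09 without the 100 other genes with the most reads, a smaller total. Rps27l turned to 0.06 with the width correction, 0.19 with width and GC content together and 0.01 without Mock 1 (-0.25 to 0.01 when any 1 library was left out), and the cause was not tested. Of all genes at an unadjusted p under 0.05, 683 were lower and 846 higher (44.7% lower), and 524 and 1085 (32.6%) when scaled by total reads, which moved the median of all genes to 0.08 and those of the subunits to -0.38 and -0.4. Genes at an adjusted p under 0.05 numbered 47, 283 in DESeq2, 36 scaled by total reads, 1 in limma without the trend and 0 to 37 when 1 library was left out. With the replicate number as a block, 53 members were lower at an unadjusted p under 0.05, and 0 genes passed the adjusted threshold. The labels name no pairing of the samples, and the deviations of same-numbered libraries correlated at -0.139, -0.123 and 0.023. These correlations cannot decide whether same-numbered samples were handled together, because each library's own differences enter the deviations from the group means. Cdkn1a missed the adjusted threshold in 7 alternatives and Ndufv3 in 11, and Ddit4, Eef2, Gnb2l1, Vim, Rpl13a, Rps10 and Rps12 passed it in DESeq2.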
